A study of Mus musculus with 6 samples.

Results

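The genes described here are 10 genes reported to change in old haematopoietic stem cells (HSCs), the bone marrow cells from which blood is renewed: Clu, Aldh1a1, Sbspon, Nupr1, Gpr183, Neo1, Alcam, Ehd3, Gda and Fhl1. They were picked by symbol as a named list, and all 10 were found among the 49997 genes of the count table. The study sorted long-term (LT) HSCs from the bone marrow of C57BL/6J mice at 4 months of age into cells with high and cells with low levels of Asrij, the protein encoded by Ociad1, and sequenced the RNA of each in bulk. There were 3 Asrij high and 3 Asrij low libraries, and both groups share strain, age, tissue and cell type as the labels give them. The labels name no treatment and give the strain alone as the genotype, while the name of the deposited table carries the tag ArjKI, which they do not explain. They state neither how Asrij was read in the sort nor that each library comes from its own mouse. No old animals were profiled, so the comparison asks how genes known from ageing differ with the Asrij level in young stem cells.

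Aged mouse HSCs are more numerous than young ones, contribute less to lymphoid cells and more to platelets and myeloid cells, and several surveys of them list a recurrent set of raised transcripts. The 10 genes encode proteins of different kinds. Clu (clusterin) is a secreted chaperone, and Sbspon encodes an extracellular protein with somatomedin B and thrombospondin domains. Aldh1a1 oxidises retinaldehyde to retinoic acid, and Gda deaminates guanine to xanthine. Gpr183 is a receptor for oxysterols, Neo1 (neogenin) a receptor for netrins and repulsive guidance molecules, and Alcam (CD166) an adhesion molecule of the immunoglobulin superfamily. Nupr1 is a small nuclear protein induced by stress, Fhl1 a LIM domain protein, and Ehd3 an ATPase of endosomal recycling.

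Library totals lay between 24707012 and 72855125 counts, with all 3 Asrij high libraries deeper than the Asrij low ones. Levels are CPM, counts relative to library totals scaled by edgeR's TMM factors, given as mean ± SD with n = 3 per group, fold changes are Asrij high over Asrij low, and a gene is called when edgeR's quasi-likelihood test gives an adjusted p under 0.05 over the 21445 genes tested. Ociad1 was at 80.3 ± 5.76 CPM in Asrij high, against 51.6 ± 5.72 CPM in Asrij low (log2 0.64 ± 0.16 (SE), adjusted p = 0.0115), and this call was lost without Asrij high replicate 1 (log2 0.53, adjusted p = 0.0831) or when libraries were scaled by their totals (log2 0.36, adjusted p = 0.133) or upper quartiles (adjusted p = 0.0834). Of 16 HSC identity genes, 13 fell and 0 rose, and their summed level was 935 to 1573 CPM in Asrij high, against 2570 to 3178 CPM in Asrij low. Of 12 proliferation genes, 12 rose, with sums of 3849 to 5679 CPM in Asrij high, against 728 to 1017 CPM in Asrij low. Markers of other kinds differed as well. Of 6 tested LT-HSC gate markers, 4 fell (Cd34, Flt3, Ptprc and Ly6a) and 0 rose. The list mixes markers that stem cells carry, such as Ly6a, with others low in them, so its counts give no direction for the gate. Its sums were 132 to 244 CPM in Asrij high, against 484 to 556 CPM in Asrij low. Ptprc alone had 82.9 to 103 CPM in Asrij high, against 197 to 271 CPM in Asrij low. Of 12 tested B and plasma cell genes, 9 fell and 0 rose. Of 13 granulocyte and monocyte genes, 6 rose (Mpo, Elane, Prtn3, Ctsg, Ly6c2 and Fcnb) and 1 fell (Mmp9). Mpo was at 1504 ± 667 CPM in Asrij high, against 84.3 ± 54.4 CPM in Asrij low. Ltf, Camp, Ngp, S100a8, S100a9 and Ccr2 were not called. The sums of this list were 4418 to 7462 CPM in Asrij high, against 906 to 3810 CPM in Asrij low. In bulk RNA, fewer cells of a kind and less RNA per cell cannot be told apart. A pair of libraries stood apart within their groups. Asrij high replicate 2 had the highest sum of HSC identity genes in its group. Within Asrij low, replicate 3 had the highest mesenchymal, macrophage, erythroid, endothelial, B and plasma cell, and granulocyte and monocyte sums. Its HSC identity, megakaryocyte, and T and NK cell sums were the lowest of that group. The erythroid sum of Asrij low replicate 3 was mostly globin mRNA.

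Of the 10 ageing genes, 4 fell in Asrij high (Clu, Nupr1, Neo1 and Alcam), 1 rose (Aldh1a1), and 5 did not pass the test (Sbspon, Gpr183, Ehd3, Gda and Fhl1). Of all tested genes, 39.4% were called, 21.7% higher and 17.7% lower in Asrij high. These shares stand beside every count of rises and falls in the other lists, and no list was tested against them. The median log2 fold change of the 10 genes was -1.23, against -0.02 over all tested genes. The same 5 genes that were called had groups without overlap, where 55% of all tested genes had none. The 5 genes that missed the threshold had fold changes below 0 as well, from -0.33 to -1.92, but with groups that overlapped. All 10 passed the filter on low counts, Neo1 and Sbspon through their Asrij low libraries, since only 2 of 3 Asrij high libraries reached its cutoff of 0.184 CPM. The count of falls was 2 without Asrij high replicate 1, Asrij low replicate 1 or Asrij low replicate 3, and 1 without Asrij high replicate 3, whereas the rise of Aldh1a1 kept its call in each of these fits. In a fit of the 4 libraries other than Asrij high replicate 2 and Asrij low replicate 3, 4 fell and 1 rose, but the falls were then those of Nupr1, Alcam, Fhl1 and Ehd3. Scaling by library totals moved the median over all tested genes by -0.27 on the log2 scale and changed the direction of none of the 10.

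**Figure D1:**
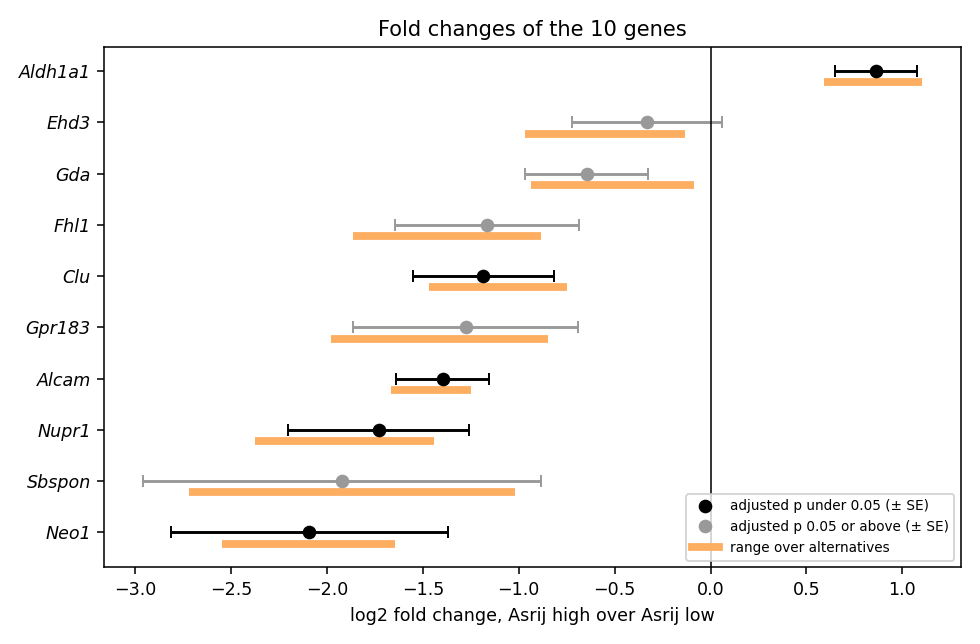
Log2 fold change (Asrij high over Asrij low, x axis) of each of the 10 genes with its standard error, black where the adjusted p was under 0.05, and below it in orange the range over 14 alternative fits. Aldh1a1 lies at 0.86 and the other 9 genes lie below 0, from -0.33 for Ehd3 to -2.09 for Neo1, and no orange bar crosses 0.

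**Figure D2:**
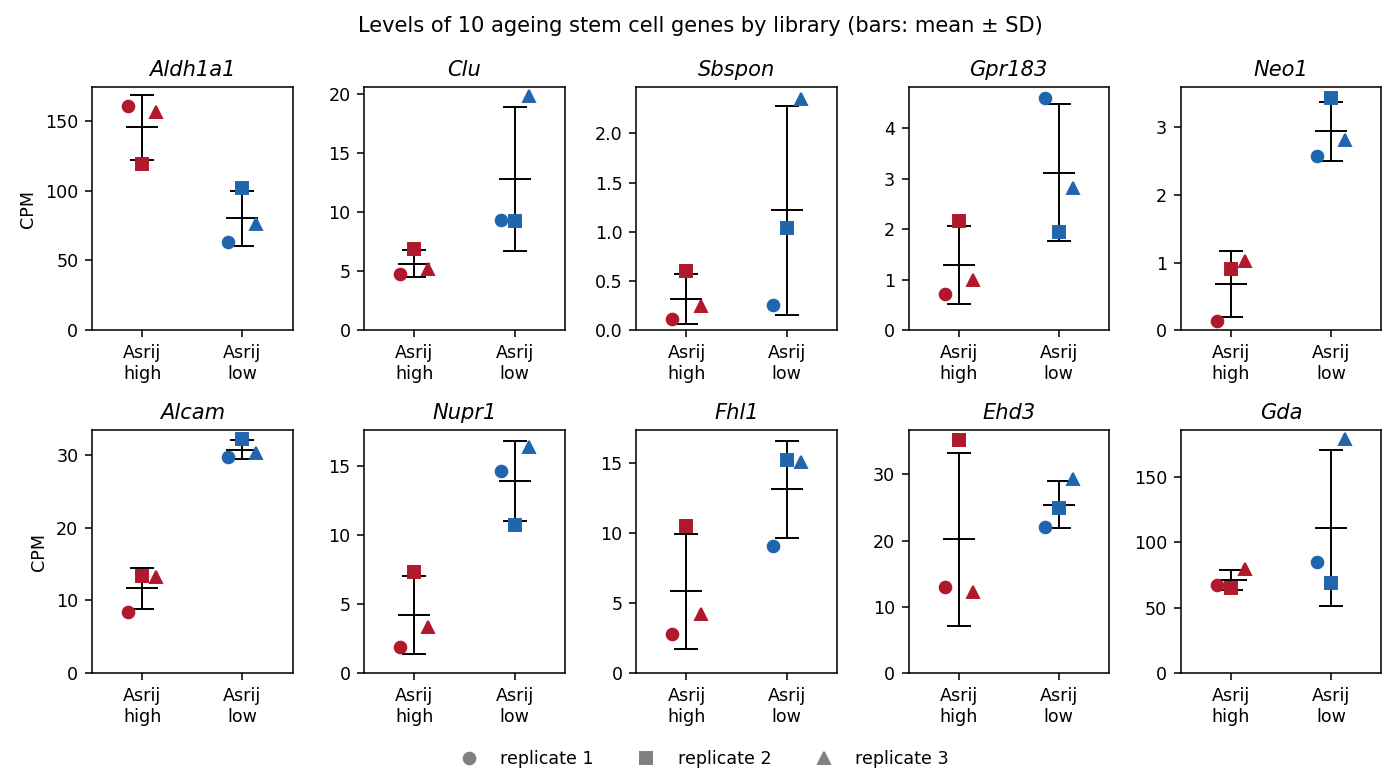
CPM of the 10 genes in each library (y axes start at 0), with Asrij high in red left of Asrij low in blue, symbols for the replicate and bars for mean ± SD. Alcam, Nupr1, Neo1 and Clu were lower in all 3 Asrij high libraries than in any Asrij low library, Aldh1a1 was higher in all 3, and Asrij high replicate 2 (square) reached into the Asrij low range for Sbspon, Gpr183 and Fhl1 and above it for Ehd3.

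Among the enzymes, Aldh1a1 (chromosome 19, 20492583 to 20643463, GRCm38) was the member that rose. It had 161, 119 and 157 CPM in Asrij high replicates 1 to 3, against 62.9, 102 and 75.9 CPM in Asrij low replicates 1 to 3. The lowest Asrij high library, replicate 2, lay above the highest Asrij low library, replicate 2. The means of 146 ± 23.2 CPM in Asrij high, against 80.1 ± 19.7 CPM in Asrij low differed 1.82-fold (log2 0.86 ± 0.21, adjusted p = 0.0108, edgeR). The call held in all 14 alternatives, with log2 fold changes from 0.59 to 1.10 and adjusted p from 2.12e-04 to 0.0422.

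The paralogue Aldh1a7, which lies beside Aldh1a1 on chromosome 19 (20692953 to 20727556, opposite strand, 49.5 kb away), differed far more. It had 99.0, 57.2 and 97.9 CPM in Asrij high replicates 1 to 3, against 2.37, 4.16 and 7.68 CPM in Asrij low replicates 1 to 3. Each Asrij high library was several-fold above every Asrij low library. Aldh1a7 was 18.1-fold higher in Asrij high (log2 4.18 ± 0.44, adjusted p = 3.28e-04), with log2 fold changes from 3.87 to 4.92 over the alternatives. Of the counts of both genes, Aldh1a7 held 38.1%, 32.5% and 38.4% in the Asrij high libraries and 3.63%, 3.93% and 9.20% in the Asrij low libraries. Their summed level was 260, 176 and 255 CPM in Asrij high and 65.2, 106 and 83.5 CPM in Asrij low. Aldh1a1 thus had the larger share of the counts in all 6 libraries. The first-numbered transcript of each gene in GENCODE M21 has 2053 bases for Aldh1a1 and 2066 for Aldh1a7, and may not be the one expressed. Per kilobase of it, Aldh1a7 had a level of 41.0 CPM in Asrij high, against 2.29 CPM in Asrij low. Aldh1a1 had one of 70.9 CPM in Asrij high, against 39.0 CPM in Asrij low. The coding sequences of these transcripts, taken as their longest open reading frames, are identical at 91.6% of 1506 bases. The longest run shared by the transcripts is 100 bases. Of all windows of 50 bases in Aldh1a1, 7.53% also occur in Aldh1a7. Reads from these stretches could be counted for either gene, and the part of such reads in the rise of Aldh1a1 was not tested.

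The start regions of both genes are shown because they share sequence. RefSeq gives Aldh1a1 an upstream and a downstream start, and the counts per gene do not tell which was used. The window at the downstream start (250 bases before it to 50 after) aligns to that of Aldh1a7 with 77.5% identical bases, the window at the upstream start with 61.6%. The windows are read 5′ to 3′ on the gene's strand (RefSeq, GRCm38.p6), chr19:20601718-20602017 on the plus strand for Aldh1a1 and chr19:20727507-20727806 on the minus strand for Aldh1a7. Capitals mark the longest run present in both, 65 bases at positions 157 to 221 of each window.
Aldh1a1: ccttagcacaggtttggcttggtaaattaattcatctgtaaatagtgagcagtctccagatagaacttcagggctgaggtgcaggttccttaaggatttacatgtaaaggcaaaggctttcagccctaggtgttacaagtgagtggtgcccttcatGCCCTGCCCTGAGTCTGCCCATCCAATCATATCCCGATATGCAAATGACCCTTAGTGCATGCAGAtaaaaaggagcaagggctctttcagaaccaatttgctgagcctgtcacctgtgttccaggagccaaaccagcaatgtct
Aldh1a7: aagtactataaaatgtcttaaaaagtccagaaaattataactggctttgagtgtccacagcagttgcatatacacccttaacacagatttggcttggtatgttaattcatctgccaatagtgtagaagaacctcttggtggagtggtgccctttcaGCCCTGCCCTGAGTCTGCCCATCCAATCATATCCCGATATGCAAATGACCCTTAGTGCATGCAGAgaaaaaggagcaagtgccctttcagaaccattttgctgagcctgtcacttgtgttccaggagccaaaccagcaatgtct
The shared run holds the letters CCAAT once and the octamer ATGCAAAT once, with both strands searched and no overlap between them. Of 32851 RefSeq start windows of this length, 37.4% hold CCAAT and 1.74% hold the octamer.

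**Figure D3:**
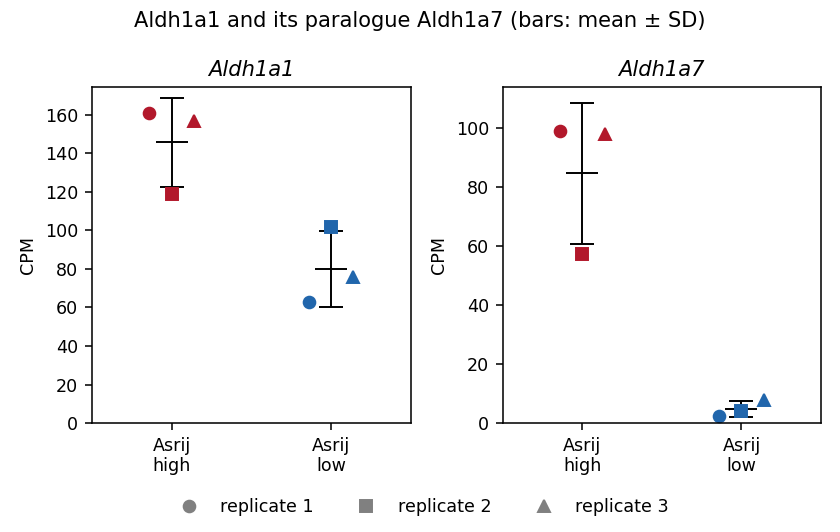
CPM of Aldh1a1 (left) and Aldh1a7 (right) in each library, Asrij high in red left of Asrij low in blue, with bars for mean ± SD (n = 3 per group). Aldh1a1 lies at 119 to 161 CPM in Asrij high, against 62.9 to 102 CPM in Asrij low, Aldh1a7 at 57.2 to 99.0 CPM in Asrij high, against 2.37 to 7.68 CPM in Asrij low.

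Among other genes listed for retinoic acid, more fell than rose. Of 13 tested genes in a list of synthesis, turnover and receptor genes that includes Aldh1a7 as a paralogue of Aldh1a1, 7 fell and 1 rose, with a median log2 fold change of -1.05. The list mixes genes that make, remove or bind retinoic acid, so its counts give no direction for the pathway. The receptor gene Rara was at 6.91 ± 3.31 CPM in Asrij high, against 29.0 ± 13.2 CPM in Asrij low (log2 -2.07 ± 0.43, adjusted p = 0.00512), and Rarg fell by 1.95 on the log2 scale. Rises other than that of Aldh1a7 were called in single fits, so that 2 genes were higher without Asrij high replicate 2 or in limma-voom and 3 without Asrij low replicate 2. Among 13 other aldehyde dehydrogenase genes, 3 rose and 1 fell. Aldh18a1, an enzyme of proline synthesis, rose by 1.60, Aldh4a1, which breaks proline down, by 1.32, and Aldh9a1 by 0.99. Aldh1l1, a folate enzyme, was the member that fell (log2 -2.18), and 4 genes of the list fell without Asrij low replicate 3 or with upper quartile factors, 3 with library totals, and 2 with no count filter or without replicate 2 of either group.

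Gda (chromosome 19, 21391307 to 21472661), on the same chromosome 747.8 kb from Aldh1a1, did not pass the test. It had 67.6, 65.3 and 79.8 CPM in Asrij high replicates 1 to 3, against 85.2, 68.6 and 179 CPM in Asrij low replicates 1 to 3. The groups overlapped, and Asrij low replicate 3 stood far above the other 5 libraries. The log2 fold change was -0.65 ± 0.32 (adjusted p = 0.136). It was past the threshold without Asrij low replicate 2 (log2 -0.86, adjusted p = 0.0478) and with library totals (log2 -0.90, adjusted p = 0.0420). Without Asrij low replicate 3 it was -0.14 (adjusted p = 0.60), and in the fit of 4 libraries -0.08 (adjusted p = 0.764). The mesenchymal stromal sum was 33.0 to 82.3 CPM in Asrij high, and in Asrij low it was 1185 CPM in replicate 3 and 409 and 291 CPM in replicates 1 and 2. The erythroid sum was 6404 to 10819 CPM in Asrij high, and in Asrij low it was 81631 CPM in replicate 3 and 28086 and 11712 CPM in replicates 1 and 2. Of the mesenchymal list 11 of 12 tested genes were lower in Asrij high, of the erythroid list 8 of 15 were higher and 5 lower, and no marker of either list was at 0 in a whole group. The lower erythroid genes were Alas2 and the globin genes Hba-a1, Hba-a2, Hbb-bs and Hbb-bt. In Asrij low replicate 3 these globin genes had 23658, 22046, 18499 and 14857 CPM, most of the erythroid sum. The higher ones included Car1 (mean 1250 CPM in Asrij high, against 75.4 CPM in Asrij low) and Klf1 (158 CPM in Asrij high, against 39.3 CPM in Asrij low). The part of stromal, erythroid or other cells' RNA in the Gda level was not tested.

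Apart from Aldh1a7, the tested neighbours between and around these genes on chromosome 19 were Anxa1, Tmc1, Zfand5, 1110059E24Rik and Abhd17b. Of them, 2 fell and 0 rose, where 39.4% of all tested genes were called. Zfand5, a zinc finger gene between Aldh1a7 and Gda, was at 61.2 CPM on average in Asrij high, against 106 CPM in Asrij low (log2 -0.79 ± 0.18, adjusted p = 0.00722), and Abhd17b, a depalmitoylase gene beyond Gda, fell by 0.88 (adjusted p = 0.0210). Anxa1, the annexin gene on the far side of Aldh1a1, had a log2 fold change of 0.08 ± 0.31 (adjusted p = 0.85), and 1110059E24Rik one of -0.03 ± 0.35. Tmc1 had at most 1.20 CPM in any library and was not called (log2 -2.27 ± 1.45), and Rorb was too low to be tested.

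Of 13 tested genes of purine salvage and breakdown, 7 rose and 2 fell, with a median log2 fold change of 0.59. Pnp, a purine nucleoside phosphorylase that acts upstream of Gda, was at 360 ± 105 CPM in Asrij high, against 82.6 ± 10.1 CPM in Asrij low (log2 2.12 ± 0.24, adjusted p = 3.98e-04). Its neighbouring copy Pnp2 rose by 2.39, but the pair are closely related and reads may be split between them. Adk, the adenosine kinase gene, rose by 1.51, and Ampd3, an AMP deaminase gene that is also reported in old HSCs, by 1.49. No gene of the list fell without Asrij high replicate 1 or Asrij low replicate 1, while with library totals 5 rose and 3 fell and with upper quartile factors 5 rose and 4 fell (median log2 fold change 0.31 and 0.32).

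Of the secreted proteins, clusterin mRNA was lower in Asrij high. Clu (chromosome 14, 65968483 to 65981548) had 4.74, 6.91 and 5.22 CPM in Asrij high replicates 1 to 3, against 9.35, 9.25 and 19.8 CPM in Asrij low replicates 1 to 3. All Asrij high libraries lay below all Asrij low ones, and Asrij low replicate 3 was the highest. Clu was 2.27-fold lower in Asrij high (log2 -1.18 ± 0.37, adjusted p = 0.0300). The call was lost without Asrij low replicate 3 (log2 -0.75, adjusted p = 0.0937), without Asrij high replicate 1 (-1.14, 0.0922 as adjusted p) and without Asrij high replicate 3 (-1.20, 0.0853 as adjusted p). It was also lost in the fit of 4 libraries (log2 -0.92, adjusted p = 0.0567). Adjusted p ran from 0.00485 to 0.0937 over all alternatives. The macrophage sum was 43.6 to 51.0 CPM in Asrij high, and in Asrij low it was 271 CPM in replicate 3 and 93.1 and 97.4 CPM in replicates 1 and 2. Of that list 8 of 10 tested genes were lower in Asrij high and none was at 0 in a whole group. The part of stromal, macrophage or other cells' RNA in the Clu level was not tested.

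Among 7 tested genes for clusterin receptors and related apolipoproteins, 3 fell and 0 rose, with a median log2 fold change of -2.14. The endocytic receptor gene Lrp1 was at 13.1 CPM in Asrij high, against 57.9 CPM in Asrij low (log2 -2.14 ± 0.39, adjusted p = 0.00291), and Vldlr, the receptor gene for very low density lipoprotein, fell by 2.14 as well. Apoe fell by 1.73 (adjusted p = 0.0310), a call lost without Asrij high replicate 3 (adjusted p = 0.107) or Asrij low replicate 2 (adjusted p = 0.0531) and without a count filter (adjusted p = 0.156). Of this list 2 genes fell without Asrij high replicate 3 or Asrij low replicate 2 and with no count filter. The falls were 5 without Asrij low replicate 3 or in limma-voom, and 6 in DESeq2 or in the fit of 4 libraries.

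Sbspon (chromosome 1, 15853862 to 15892722) was near the detection limit. It had 0.110, 0.597 and 0.243 CPM in Asrij high replicates 1 to 3 (6, 38 and 16 counts), against 0.259, 1.04 and 2.36 CPM in Asrij low replicates 1 to 3 (14, 30 and 61 counts). The groups overlapped, and both spread widely, 5.42-fold within Asrij high and 9.09-fold within Asrij low. The log2 fold change of -1.92 ± 1.04 did not pass the test (adjusted p = 0.170), and it was -1.02 without Asrij low replicate 3. The gene model Gm37509 lies across its exons on the opposite strand, and the strand setting of the counts is not given in the sources used here.

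Of the receptors and adhesion molecules, Alcam showed the most even difference. Alcam (chromosome 16, 52248996 to 52453081) had 8.37, 13.3 and 13.3 CPM in Asrij high replicates 1 to 3, against 29.6, 32.2 and 30.2 CPM in Asrij low replicates 1 to 3. The highest Asrij high value was below the lowest Asrij low value by more than the range within either group. Alcam was 2.63-fold lower in Asrij high (log2 -1.40 ± 0.24, adjusted p = 0.00226). Its call held in all 14 alternatives, with log2 fold changes from -1.66 to -1.25. Its RefSeq start window is shown as a contrast to those of the Aldh1a genes, since it is rich in CpG. It lies at chr16:52453032-52453331 on the minus strand of GRCm38.p6, and capitals mark the letters GGGCGG or their reverse complement CCGCCC.
Alcam: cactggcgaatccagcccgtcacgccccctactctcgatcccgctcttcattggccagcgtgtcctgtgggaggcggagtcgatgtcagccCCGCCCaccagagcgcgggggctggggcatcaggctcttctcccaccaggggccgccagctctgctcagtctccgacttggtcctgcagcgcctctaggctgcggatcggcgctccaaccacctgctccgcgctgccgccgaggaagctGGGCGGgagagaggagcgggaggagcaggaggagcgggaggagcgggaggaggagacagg
The Alcam window has 25 CpG and 69.7% G or C, that of Aldh1a7 1 CpG and 44.0%, and that at the downstream start of Aldh1a1 1 CpG and 47.0%, where the median of all windows is 7 CpG and 52.7%. GGGCGG on either strand occurs in 35.7% of all windows. Of the 8 members with a window, Neo1 had the most CpG, with 54.

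Of 13 tested genes for ALCAM partners and other adhesion molecules of the immunoglobulin superfamily, 7 fell and 0 rose, with a median log2 fold change of -1.77. Icam1, a ligand of leukocyte integrins, was at 7.21 CPM in Asrij high, against 37.5 CPM in Asrij low (log2 -2.37 ± 0.40, adjusted p = 0.00192). Esam, an adhesion molecule of endothelial cells and HSCs, fell by 2.23, F11r by 2.06 and Pecam1 by 1.77. Cd47, which protects cells from phagocytosis, had a log2 fold change of -0.01 ± 0.17 (adjusted p = 0.977). The count of falls was 4 without Asrij high replicate 1 or Asrij low replicate 3. Cd6, the known ALCAM receptor of T cells, was too low to be tested.

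Neo1 (chromosome 9, 58874679 to 59036614) was the member with the largest fitted fall. It had 0.129, 0.911 and 1.02 CPM in Asrij high replicates 1 to 3 (7, 58 and 67 counts), against 2.57, 3.43 and 2.82 CPM in Asrij low replicates 1 to 3 (139, 99 and 73 counts). All Asrij high libraries lay below all Asrij low ones, and Asrij high replicate 1 was the lowest, at 7 counts. Neo1 was 4.26-fold lower in Asrij high (log2 -2.09 ± 0.72, adjusted p = 0.0445). The call was near the threshold and was lost without any single library, at adjusted p = 0.0814, 0.0714 and 0.0624 without Asrij high replicates 1 to 3 and 0.0835, 0.0915 and 0.0693 without Asrij low replicates 1 to 3. The log2 fold change stayed between -1.64 and -2.55 in all alternatives.

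Of 11 tested ligands and partners of neogenin, 3 fell and 1 rose, with a median log2 fold change of -1.32. Rgmb, a repulsive guidance molecule that binds neogenin, was at 0.430 CPM in Asrij high, against 5.88 CPM in Asrij low (log2 -3.76 ± 0.58, adjusted p = 0.00142). Bmpr2, a bone morphogenetic protein receptor gene, fell by 1.66, and the netrin receptor gene Unc5b by 3.31, a call lost without Asrij high replicate 1 or 3 (adjusted p = 0.102 and 0.0931). The netrin gene Ntn4 was the one that rose, to 23.2 CPM in Asrij high against 5.46 CPM in Asrij low (log2 2.08 ± 0.33, adjusted p = 0.00156). In the fit of 4 libraries 2 genes rose. Ntn1 was low in both groups and not called (log2 -1.32 ± 1.02, adjusted p = 0.336).

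Gpr183 (chromosome 14, 121952331 to 121965193) did not pass the test. It had 0.716, 2.17 and 0.986 CPM in Asrij high replicates 1 to 3, against 4.61, 1.94 and 2.82 CPM in Asrij low replicates 1 to 3. The groups overlapped in Asrij high replicate 2 and Asrij low replicate 2. The log2 fold change was -1.28 ± 0.59 (adjusted p = 0.112), and no alternative brought it past the threshold, with adjusted p from 0.0527 to 0.348. Of 5 tested genes for the enzymes that make or break down its oxysterol ligands, 2 fell and 0 rose. Hsd3b7 fell by 1.02 (adjusted p = 0.0202) and Cyp27a1 by 2.53 (adjusted p = 0.0207), and both calls were lost without Asrij high replicate 1 (adjusted p = 0.0509 and 0.0537) or Asrij low replicate 1 (0.0693 and 0.0731). Hsd3b7 was also lost without Asrij low replicate 2 (adjusted p = 0.0667) and Cyp27a1 without Asrij high replicate 3 (adjusted p = 0.0678). Ch25h, which makes the precursor of the main ligand, had 0 counts in all 6 libraries.

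Among the intracellular proteins, Nupr1 (chromosome 7, 126623246 to 126625470) fell. It had 1.89, 7.35 and 3.32 CPM in Asrij high replicates 1 to 3, against 14.6, 10.7 and 16.4 CPM in Asrij low replicates 1 to 3. The groups did not overlap, and Asrij high replicate 2 came nearest to the Asrij low libraries. Nupr1 was 3.32-fold lower in Asrij high (log2 -1.73 ± 0.47, adjusted p = 0.0169). The call was lost without Asrij high replicate 3 (log2 -1.66, adjusted p = 0.0507) or Asrij low replicate 1 (log2 -1.66, adjusted p = 0.0570), and the log2 fold change ran from -2.38 to -1.44 over all alternatives.

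The stress response in which Nupr1 is induced showed no shared direction. Of 12 tested genes of the integrated stress response, 2 rose and 3 fell, close to the 39.4% of all tested genes that were called. Atf4, its central transcription factor gene, was at 114 ± 12.6 CPM in Asrij high, against 65.9 ± 2.37 CPM in Asrij low (log2 0.79 ± 0.15, adjusted p = 0.00373). Trib3, a target of ATF4, was at 0.692 CPM in Asrij high, against 8.91 CPM in Asrij low (log2 -3.68 ± 0.60, adjusted p = 0.00175), and Ddit4, an inhibitor of mTORC1 signalling, fell by 1.31. Ddit3 had a log2 fold change of 0.34 ± 0.21 (adjusted p = 0.231). The kinase gene Eif2ak1 rose by 0.66 (adjusted p = 0.0197), and this call was lost without Asrij high replicate 1 or 3 or Asrij low replicate 1 or 3 (adjusted p = 0.111, 0.111, 0.0544 and 0.0632), which left 1 rise, as did scaling by library totals or upper quartiles.

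Fhl1 (chromosome X, 56731209 to 56793346) had 2.77, 10.5 and 4.23 CPM in Asrij high replicates 1 to 3, against 9.09, 15.2 and 15.1 CPM in Asrij low replicates 1 to 3. Asrij high replicate 2 lay above the lowest Asrij low library, replicate 1, and the other Asrij high libraries lay below all of them. The log2 fold change of -1.17 ± 0.48 did not pass the test (adjusted p = 0.0798). Fhl1 was lower past the threshold without Asrij high replicate 2 (log2 -1.86, adjusted p = 0.00550), in the fit of 4 libraries (log2 -1.80, adjusted p = 0.0160), in DESeq2 (log2 -1.24, adjusted p = 0.0228), in limma-voom (log2 -1.25, adjusted p = 0.0413), with the replicate number as a block (log2 -1.36, adjusted p = 0.0149), under upper quartile scaling (log2 -1.43, adjusted p = 0.0441) and with no count filter (log2 -1.11, adjusted p = 0.0380), which makes 7 of 14 alternatives. In 11 tested genes of the FHL family and LIM domain partners, 4 fell and 0 rose. Zyx, the zyxin gene of focal adhesions, was at 116 CPM in Asrij high, against 375 CPM in Asrij low (log2 -1.69 ± 0.34, adjusted p = 0.00444). The calls of Fhl3 (log2 -1.06), Lmo2 (-0.52) and Pxn (-0.48) were lost without Asrij high replicate 1 (adjusted p = 0.0813, 0.0915 and 0.0881), Asrij high replicate 3 (0.0846, 0.0880 and 0.101) or Asrij low replicate 1 (0.107, 0.138 and 0.104), which left 1 fall in each of these fits. With no count filter or with the replicate block, 2 genes of the list fell.

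Ehd3 (chromosome 17, 73804841 to 73832093) had 13.0, 35.2 and 12.3 CPM in Asrij high replicates 1 to 3, against 22.1, 24.9 and 29.2 CPM in Asrij low replicates 1 to 3. Asrij high replicate 2 was the highest of all 6 libraries, and the other Asrij high libraries were the lowest. The log2 fold change was -0.33 ± 0.39 (adjusted p = 0.534), and without Asrij high replicate 2 it was -0.97 (adjusted p = 0.0119). Its family members differed from it in value. Ehd1 was at 182 ± 20.5 CPM in Asrij high, against 63.3 ± 13.6 CPM in Asrij low (log2 1.53 ± 0.19, adjusted p = 5.99e-04), Ehd4 had a log2 fold change of 0.24 ± 0.15 (adjusted p = 0.241) and Ehd2 one of 0.94 ± 0.75 (adjusted p = 0.351). Of 13 tested genes of this family and its recycling partners, 5 rose and 2 fell. Pacsin2, a membrane-bending partner, rose by 1.48, and Micall1 fell by 1.60. Pacsin1 fell by 3.23 (adjusted p = 0.0187), but its call was lost without any Asrij high library (adjusted p = 0.0742, 0.0532 and 0.0929 without replicates 1 to 3). The count of rises was 2 without Asrij high replicate 1 or 3 or Asrij low replicate 1, and 3 without Asrij low replicate 3. With library totals or upper quartile factors it was 2, and the list median was -0.03 in place of 0.24, with 3 and 4 falls. The falls were 1 without any of the Asrij high libraries.

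Within Asrij high, the members did not vary evenly. Replicate 2 held the highest Asrij high value for 7 of the 10 genes, all but Aldh1a1, Neo1 and Gda, and replicate 1 held the lowest for 7. Over all tested genes, 41.1% had their highest Asrij high value in replicate 2. The ratio of the highest to the lowest Asrij high library had a median of 2.95 over the members and 1.497 over tested genes with counts in all 3 libraries, and the ratio within Asrij low was 1.64 over the members and 1.62 over such genes. Asrij high replicate 2 also had the highest megakaryocyte sum, at 1342 CPM against 473 and 472.5 CPM in the other Asrij high libraries and 877 to 1099 CPM in Asrij low, and within Asrij high the lowest proliferation sum, at 3849 CPM against 5260 and 5679 CPM. Of 14 megakaryocyte genes, 2 fell, 0 rose and none was at 0 in a whole group. In Asrij high replicate 2, Itga2b (550 CPM) and Vwf held most of the megakaryocyte sum. Both are also among the other genes listed for old HSCs. Itga2b, Itgb3, Vwf, Pf4, Gp1bb and Treml1 were highest in this library among all libraries, whereas Ppbp (2.80 CPM) and Thbs1 (7.05 CPM) were lowest in it. Vwf, the gene for von Willebrand factor, which is itself raised in old HSCs, was at 337 CPM in Asrij high replicate 2, 142 and 139 CPM in the other Asrij high libraries, and 113 to 150 CPM in Asrij low. The part of megakaryocyte-type RNA in the member levels of this library was not tested.

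**Figure D4:**
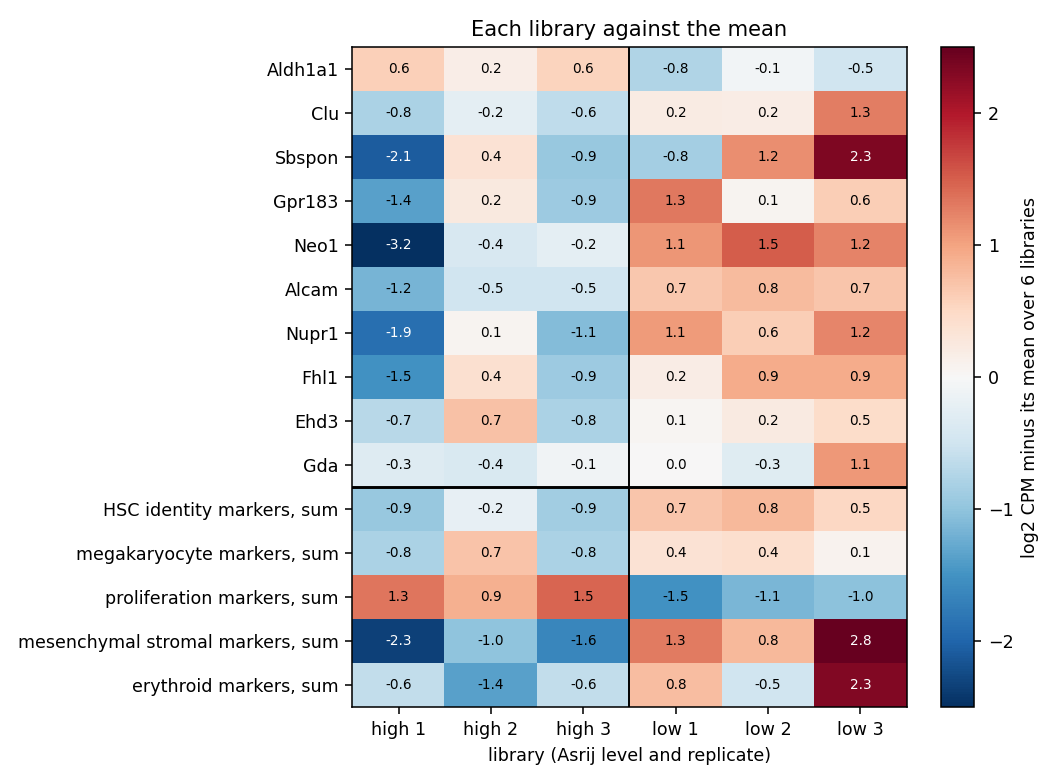
Log2 level of each member (upper 10 rows) and of the summed markers of 5 cell states (lower rows) in each library, minus the row's mean over the 6 libraries, with Asrij high left of Asrij low. Asrij high replicate 2 stands at 0.73 for Ehd3, 0.40 for Fhl1 and 0.71 for megakaryocyte markers, and Asrij low replicate 3 at 1.08 for Gda, 1.28 for Clu and 2.84 for mesenchymal stromal markers.

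Levels per kilobase depended on the length used, either all exons of a gene joined or its first-numbered transcript (GENCODE M21). The transcript length was added after seeing the data. Per kilobase of joined exons, Aldh1a1 had a level of 29.5 ± 4.70 CPM in Asrij high and Gda one of 11.4 ± 1.24 CPM. Per kilobase of transcript, Aldh1a1 had 70.9 ± 11.3 CPM in Asrij high and Gda 13.1 ± 1.43 CPM, and the libraries of the pair did not overlap in Asrij high at either length. In Asrij low, Aldh1a1 had 16.2 ± 3.99 CPM per kilobase of joined exons and 39.0 ± 9.60 CPM per kilobase of transcript, and Gda 17.8 ± 9.57 and 20.5 ± 10.99 CPM, with libraries that overlapped at either length. Ehd3, Nupr1, Alcam, Clu and Fhl1 came next, with 1.57 to 3.08 CPM per kilobase of joined exons in Asrij high, against 3.53 to 5.54 in Asrij low, and most neighbours in that order overlapped. Per kilobase of transcript they had 1.93 to 5.52 CPM in Asrij high, against 5.08 to 16.8 CPM in Asrij low, where Nupr1 overlapped with Gda. Gpr183 followed, with 0.447 in Asrij high, against 1.08 in Asrij low per kilobase of joined exons, and Sbspon (0.115 in Asrij high, 0.443 in Asrij low) and Neo1 (0.0786 in Asrij high, 0.337 in Asrij low) were lowest and did not differ from each other beyond their spread.

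The genes most like each member across the 6 libraries were found by the root mean square difference of log2 CPM, after centring each gene on its own mean, among 9649 other genes with at least 10 CPM on average. For Ehd3 this was Treml1, a platelet receptor gene (difference 0.17), and for Fhl1 it was Trpc6, a calcium channel gene also listed for old HSCs (0.13). Neo1 was nearest to Mecom, an HSC transcription factor gene (0.25), and Nupr1 to Plxnb2, a semaphorin receptor gene (0.14). Aldh1a1 was nearest to Smc1a, a cohesin subunit gene (0.04), Gda to the nuclear noncoding RNA Malat1 (0.07), and Clu to Slc16a7, a monocarboxylate transporter gene (0.14). Alcam was nearest to the pseudogene Vmn2r-ps23 (0.10), Gpr183 to Apc2 (0.23), and Sbspon to Mpdz at a larger distance (0.55). Among the members themselves, Clu and Gda were the nearest pair (0.37), and Neo1 and Aldh1a1 the farthest apart (1.90).

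Of 32 other genes reported to change in old HSCs, 11 fell in Asrij high, 4 rose and 17 did not pass the test, with a median log2 fold change of -0.87. The falls were 7 without Asrij high replicate 1 or 3 and 16 in the fit of 4 libraries. Among them, Zfp36, an mRNA decay factor gene, was at 8.65 CPM in Asrij high, against 34.3 CPM in Asrij low (log2 -1.98 ± 0.25, adjusted p = 5.58e-04), and Tgm2, a transglutaminase gene, fell by 1.17. The rises were those of Tlcd4, Mt1, Mt2 and Ampd3. Tlcd4, a membrane protein gene also known as Tmem56, had 109, 61.9 and 101 CPM in Asrij high replicates 1 to 3, against 1.39, 1.77 and 2.16 CPM in Asrij low replicates 1 to 3. All 3 Asrij high libraries were far above the Asrij low ones (log2 5.69 ± 0.31, adjusted p = 1.09e-04). The metallothionein gene Mt1 was at 49.1 ± 9.95 CPM in Asrij high, against 3.14 ± 1.03 CPM in Asrij low (log2 3.97 ± 0.30, adjusted p = 1.85e-04). Selp, the P-selectin gene and a widely reported member of the ageing set, was at 8.83 ± 5.24 CPM in Asrij high, against 18.0 ± 4.62 CPM in Asrij low, which fell short of the threshold (log2 -1.03 ± 0.41, adjusted p = 0.0737).

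**Figure D5:**
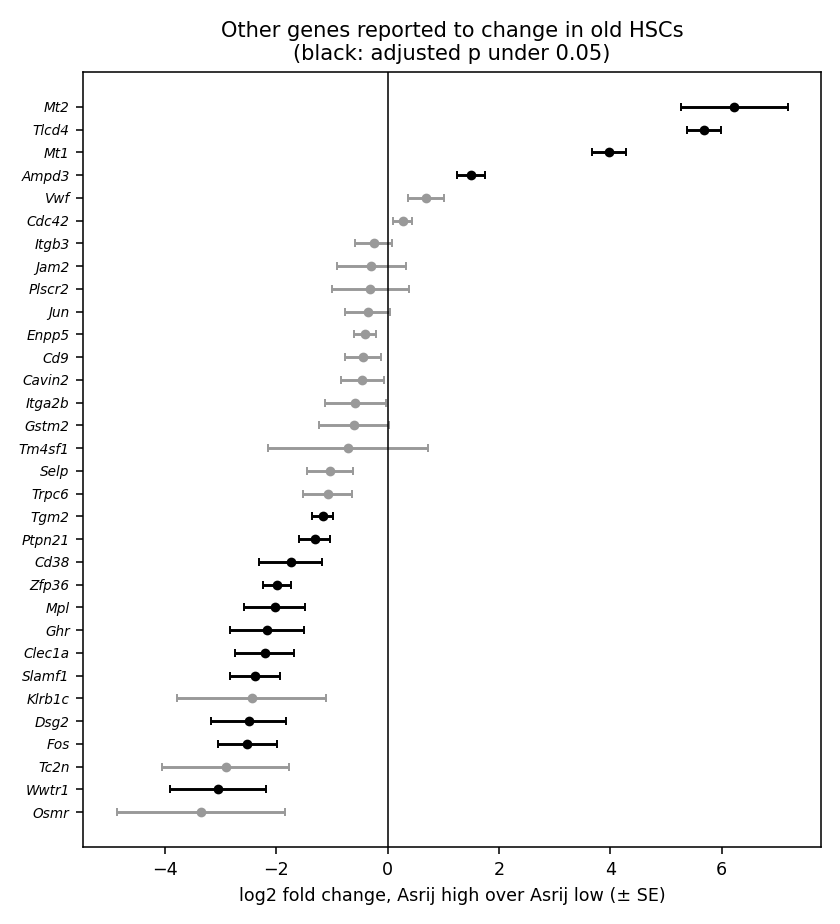
Log2 fold change (Asrij high over Asrij low, x axis) with its standard error for 32 other genes reported to change in old HSCs, black where the adjusted p was under 0.05. Of the black points 11 lie left of 0 and 4 right of it, with Mt2 (6.23), Tlcd4 (5.69), Mt1 (3.97) and Ampd3 (1.49) on the right.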

How the data were processed

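RNA of sorted LT-HSCs was sequenced in bulk. Per the labels' protocols, ribosomal RNA was depleted and libraries were made with a directional kit, while the labels' molecule field names polyA RNA. The authors deposited 1 table of raw, whole-number read counts, with gene symbols as rows. The mm10 build and the tools HISAT2, Subread, SAMtools and FastQC are named, per the submitters' processing notes. Their versions, the annotation, the strand setting and the treatment of reads with several matches are not stated in the labels or the notes. Columns were tied to samples through the library name in the labels.

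In R 4.3.3, counts were fitted over the whole table with edgeR 4.0.16 (TMM factors, robust quasi-likelihood test, group as the term, filterByExpr with minimum count 10 and minimum total 15), which tested 21445 of 49997 genes, with Benjamini-Hochberg adjustment over all of them. SE were derived from the test statistic. DESeq2 1.42.0, limma 3.58.1 (voom), other scalings, no filter, a replicate block and each library left out were alternatives. The fit was tested on simulated counts. Replicates differed by more than sampling noise in every pair (82.5 to 183 as chi-square over its degrees of freedom). The members and lists were chosen with earlier results of these data known. All 314 list entries were found, Nupr2 and Zfyve20 under other symbols (RefSeq, GRCm38.p6), which also gives coordinates and start windows. Transcripts and start windows were aligned with Biopython 1.88. The text names the members, Ociad1, chromosome 19 neighbours, up to 4 genes per list with the smallest p (1 such gene is not reported here), and most alike genes. Cd47, Cd6, Ch25h, Ntn1, Ddit3, Ehd2, Ehd4, Vwf, Selp, Mt2 and single marker genes were named after their values were seen. P-values measure the spread between these libraries, which may be technical.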

Additional observations from a re-analysis of the deposited data

How the results depend on the processing

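Over the 10 genes and 14 alternatives, 116 of 140 log2 fold changes kept their side of the threshold, 13 lost it, 11 gained it, and none changed sign. Leaving out each library in turn gave 1 to 5 falls among the members, 7 to 16 falls among the other ageing genes, and 5481 to 8935 called genes in the whole table, of which 2346 to 3752 were lower in Asrij high. The lowest of each belonged to the fits without Asrij high replicate 1 or 3, and the cause was not tested. The share of called genes that were higher was 55.1%, and 40.2% and 39.9% with library totals and upper quartile factors. With the replicate number as a block, 5 members fell, with Fhl1 added, 1 rose and 8088 genes were called. The numbers were not taken as pairs, since the labels do not state that same-numbered libraries share a mouse. Deviations of same-numbered libraries correlated at 0.013, 0.046 and 0.225, and those of differently numbered libraries at -0.158 to 0.1. These values cannot settle whether the libraries are paired. The fit of 4 libraries was chosen after seeing the data. Depth limits Neo1 and Sbspon most: 3 counts correspond to 0.0455 to 0.116 CPM, counting error only.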
